A study of Mus musculus with 39 samples.

Results

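AMKO erythroblasts, which carry a homozygous deletion of both adult α-globin genes (Hba1 and Hba2, annotated as Hba-a1 and Hba-a2), were compared with WT erythroblasts of the same experiment for where the enhancers R1 and R2 made their contacts. The AMKO library and the WT library were chosen by their labels, 1 library each, and 3 further WT libraries captured from the same enhancers (MFL replicates 1 to 3) gave the spread between WT libraries. These are 5 of the 39 samples of the series, and 3 mES libraries (mouse embryonic stem cells, with silent α-globin genes) are cited for reference. All 5 came from disaggregated foetal liver cells at mid-gestation, expanded ex vivo as erythroid progenitors, depleted of Ter119-positive cells, sorted for CD44 and cell size, and differentiated for 30 h with BrdU present at the end of culture. The strain field gives C57Bl6, whereas the study's methods describe mutant and wild-type mice as kept on a mixed background, so a difference in strain between AMKO and WT cannot be told apart from the deletion. For the MFL replicates the sample descriptions give 30 h, whereas the time field gives 0 h. The number of embryos behind each library, and whether the AMKO and WT embryos were littermates, is not given in the sources used here. The assay measured DNA contacts and no expression, so the erythroid identity of the cells could not be checked in these libraries. Neither AMKO nor WT had a replicate, and no difference between them had a replicate check on either side.

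The α-globin genes are switched on during red cell maturation by a group of upstream enhancers that lie in introns of the neighbouring gene Nprl3, a subunit of the GATOR1 complex that restrains mTORC1. R1 and R2 are the major enhancers of this group. In erythroid cells they contact the α-globin promoters within a self-interacting domain, a stretch of chromatin whose sequences meet one another more often than they meet sequences outside, flanked by sites bound by the insulator protein CTCF. The comparison asked whether and how the contacts of R1 and R2 were arranged when the genes that they act on were missing.

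NG Capture-C ligates crosslinked DNA that was cut by DpnII, captures ligation products of a chosen fragment (the viewpoint) and counts the fragments joined to it. The viewpoints were R1 (chr11:32145277-32146568, mm9) and R2 (chr11:32151060-32151883, mm9), both intronic in Nprl3. Reporter reads numbered 35195 from R1 and 54283 from R2 in WT, 51314 and 81841 in AMKO, and 5332 to 16459 per viewpoint in the MFL replicates, so the MFL replicates were the least precise. The share of reads on chromosome 11 (cis) was 68.6% from R1 and 63.3% from R2 in WT, and 65.4% and 61.0% in AMKO. In the MFL replicates it was 67% to 69.8% from R1 and 63.1% to 66.4% from R2. Between any pair of MFL replicates the read counts differed by a chi-square of 1.07 to 1.72 per degree of freedom, against 1.59 to 2.91 between WT and an MFL replicate, 2.46 to 2.53 between WT and AMKO, and 1.46 to 2.23 between AMKO and an MFL replicate. For each MFL replicate and viewpoint, AMKO differed less from it than WT did. This chi-square rises with depth, which was lower in the MFL replicates. Since the WT library of the experiment stood apart from the MFL replicates in some intervals, results are given beside both. Unless stated otherwise, values are shares of the cis contacts outside the deleted interval and outside 1 kb of the viewpoints, averaged over R1 and R2. Intervals of 95% cover counting error only, since reads were not counted as independent molecules, and a count of 3 reads corresponded to 6.01 to 12.4 per 100000 cis reads in WT and AMKO and to 27.5 to 82.9 in the MFL replicates.

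The deletion was checked first. The deleted interval, chr11:32182971-32199492 (mm9), spans 16.5 kb and 36 measured DpnII fragments and holds Hba-a1, Hbq1b (a theta-globin gene) and Hba-a2. Its fragments took 10.5% of the R1 cis reads and 11.9% of the R2 cis reads in WT, and 8.83% to 10.9% in the MFL replicates. In AMKO they took 0.868% and 0.953%, from 291 and 476 reads. Per 100000 reporter reads the interval had a value of 7362 in WT and 574 in AMKO, which is 7.80% of WT. The AMKO library therefore matched its label, with a remainder that was not spread evenly.

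On 31 of the 36 deleted fragments the AMKO value was 1.63% to 8.62% of WT, with a median of 4.31%. The other 5 fragments were at 15% of WT or more. A run of 4 adjacent fragments over and beside Hbq1b (32185903 to 32187831) had 386 and 561 reads from R1 and R2 in WT and 113 and 165 in AMKO, and their AMKO values were 17.3% to 21.7% of WT. The last deleted fragment (32198229 to 32199492) had 86 and 106 reads in WT and 43 and 71 in AMKO, which is 38.8% of WT. These 5 fragments held 53.6% of the R1 reads and 49.6% of the R2 reads that AMKO had in the interval. Retained sequence on each side was also lower than in WT close to the deletion. Over the 6 retained fragments before it (32179817 to 32182970), the AMKO value stepped from 96.7% of WT at the far end to 69.7% at the fragment that borders the deletion. The 3 fragments after it, which overlap Hbq1a, were at 62.6%, 53.6% and 55.8% of WT, and the 3 beyond those were at 79.4%, 86% and 68.6%.

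**Figure D1:**
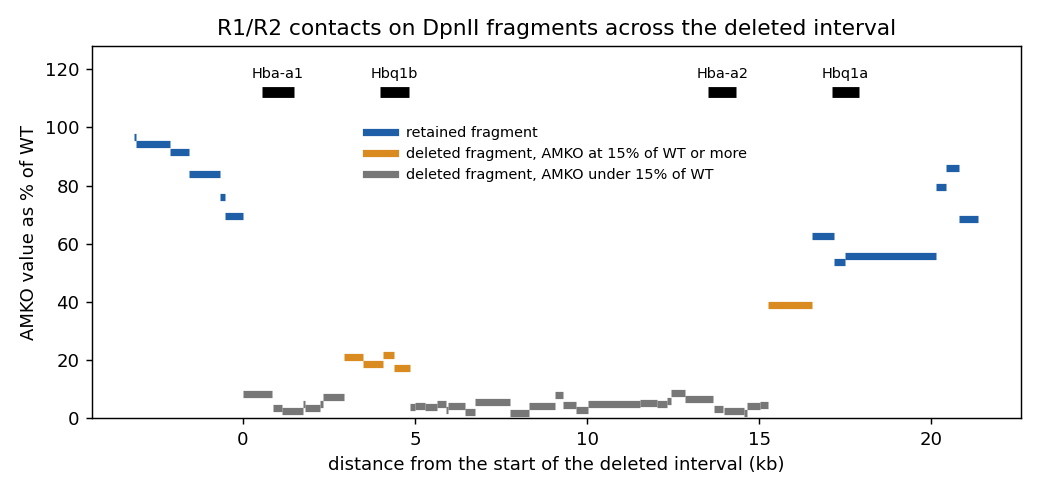
AMKO value as a percentage of WT for each DpnII fragment, plotted by distance in kb from the start of the deleted interval. Each bar spans 1 fragment, grey and orange bars are deleted fragments, blue bars are retained fragments, and black boxes mark the 4 globin genes. Most deleted fragments lie under 10% of WT, the 4 fragments at Hbq1b lie between 17.3% and 21.7%, and the last deleted fragment lies at 38.8%.

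The theta-globin genes Hbq1b, inside the deletion, and Hbq1a, outside it, are near copies. Their matched DpnII fragments, chr11:32187033-32187364 in Hbq1b and chr11:32200138-32200469 in Hbq1a, are 332 bases long, differ at 5 positions and are 98.49% identical. The first 240 bases of each, which hold all 5 differences, are shown from the plus strand of mm9 with the differing bases in capitals. Reads that cover none of these positions cannot be assigned to one copy.
Hbq1b: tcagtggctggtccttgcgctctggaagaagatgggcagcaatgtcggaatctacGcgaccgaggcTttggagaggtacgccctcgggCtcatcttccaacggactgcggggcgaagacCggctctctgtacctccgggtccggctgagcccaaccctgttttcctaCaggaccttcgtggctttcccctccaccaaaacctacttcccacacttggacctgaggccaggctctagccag
Hbq1a: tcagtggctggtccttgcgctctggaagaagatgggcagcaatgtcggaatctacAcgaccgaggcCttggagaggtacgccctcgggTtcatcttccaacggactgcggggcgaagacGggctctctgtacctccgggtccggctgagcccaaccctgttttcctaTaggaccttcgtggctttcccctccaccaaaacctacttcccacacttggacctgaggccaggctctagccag
In WT the Hbq1b fragment had 97 reads from R1 and 139 from R2, against 81 and 116 on the Hbq1a fragment. In AMKO the counts were 29 and 48 on Hbq1b, which is deleted, and 70 and 83 on Hbq1a, which is retained. Of all 40-base windows in the Hbq1b fragment, 50.9% occur unchanged in retained sequence, and the shares in the other 3 fragments of that run were 0%, 21.5% and 8.88%. The last deleted fragment shared 0% of its 40-base windows with retained sequence. Of its windows, 29.9% occur more than once within the deleted interval, as do 69.4% of those in the fragment 32185903 to 32186468 at Hbq1b. In the matched 275-base fragments of Hba-a1 and Hba-a2, 100% do, and their AMKO values were 3.62% and 3.18% of WT. The part of shared sequence in the residual reads was not tested, and values on Hbq1a and Hbq1b are uncertain for this reason.

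Hba-a1 and Hba-a2 also share sequence, but both copies are deleted. Their matched 275-base fragments, chr11:32183838-32184112 and chr11:32196655-32196929, differ at 0 positions. The sequence is given once, from the plus strand of mm9, as the globin sequence whose contacts were lost.
Hba-a1 and Hba-a2: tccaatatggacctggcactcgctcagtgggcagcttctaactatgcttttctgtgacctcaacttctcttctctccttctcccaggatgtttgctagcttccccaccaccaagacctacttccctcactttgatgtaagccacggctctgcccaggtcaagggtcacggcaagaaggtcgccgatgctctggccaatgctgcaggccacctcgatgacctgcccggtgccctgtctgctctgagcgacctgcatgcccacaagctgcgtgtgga
Reads on the copies were nearly equal in WT, with 80 and 82 from R1 and 151 and 153 from R2, although the sequence cannot tell them apart. In AMKO they had 5 and 4 reads from R1 and 7 from R2 on each, or 3.62% and 3.18% of WT.

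With the deleted interval left out, the contacts that R1 and R2 made elsewhere on chromosome 11 lay farther from the enhancers in AMKO than in any of the 4 WT libraries. Contacts within 500 kb of the viewpoints made up 63.6% in WT, 61.8%, 62.9% and 63.0% in the MFL replicates, and 51.0% in AMKO. Contacts beyond 500 kb made up 36.4% in WT, 38.2%, 37.1% and 37.0% in the MFL replicates, and 49.0% in AMKO, a log2 ratio of 0.43 over WT (95% counting interval 0.41 to 0.45) and of 0.39 over the MFL mean (0.36 to 0.41). The 4 WT libraries spanned less than 2 percentage points and AMKO lay outside them. Both enhancers showed the difference, at 37.6% in WT and 48.5% in AMKO from R1, and at 35.2% and 49.4% from R2.

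The added far contacts were at distances over 5 Mb on both sides. Upstream of the viewpoints, at over 5 Mb, the share was 7.62% in WT, 8.65% to 9.27% in the MFL replicates and 11.1% in AMKO. Downstream at over 5 Mb it was 20.8% in WT, 17.8% to 18.4% in the MFL replicates and 27.9% in AMKO. Between 500 kb and 5 Mb AMKO lay within the range of the WT libraries on each side, with 5.95% upstream and 4.03% downstream. In that last class the WT library of the experiment, at 2.55%, was itself below the MFL replicates, at 3.92% to 4.26%. AMKO was also the deepest library and had a lower cis share than each of the 4 WT libraries from both viewpoints. The deepest of the 4 WT libraries, WT, had 36.4% beyond 500 kb, and the shallower MFL replicates had 37.0% to 38.2%. Depth and experiment cannot be told apart in these values. The part of depth and of library background in the AMKO value was not tested. In mES cells, where α-globin is silent, contacts beyond 500 kb made up 30.6% ± 2.40 (SD, n = 3).

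**Figure D2:**
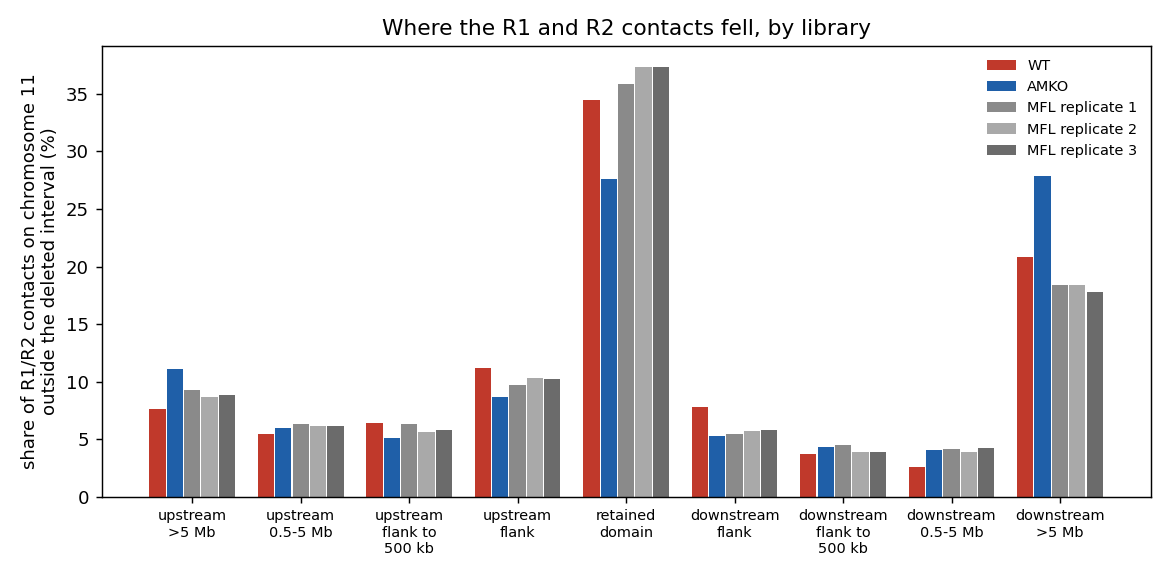
Share of R1 and R2 cis contacts outside the deleted interval, in percent, in 9 classes of position from far upstream to far downstream, with 1 bar per library and no error bars. AMKO (blue) has the lowest bar for the retained domain, at 27.6%, and the highest bar at over 5 Mb downstream, at 27.9%.

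The self-interacting domain was taken as the 63.7 kb insert of the BAC used for imaging it, from just upstream of the CTCF site HS39.5 to inside Hbq1a, of which 39.6 kb was retained and not next to a viewpoint. The retained domain took 34.5% of contacts in WT, 35.9%, 37.3% and 37.3% in the MFL replicates, and 27.6% in AMKO, against 28.0% to 29.7% in the mES libraries. The log2 ratio was −0.32 over WT (−0.34 to −0.30) and −0.42 over the MFL mean (−0.44 to −0.39). The upstream flank, of the same length as the domain, took 11.2% in WT, 9.72% to 10.3% in the MFL replicates and 8.63% in AMKO, with a log2 ratio of −0.37 (−0.42 to −0.32). The downstream flank took 7.83% in WT, 5.42% to 5.77% in the MFL replicates and 5.30% in AMKO, with a log2 ratio of −0.56 over WT (−0.63 to −0.50) but of −0.09 over the MFL mean (−0.17 to −0.01). AMKO was below every WT library in all 3. The WT library was itself above the MFL mean in the downstream flank, by 0.48 on the log2 scale (0.39 to 0.56), so the size of that difference depended on the WT library used.

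The lower share of the domain came with a higher share at distance, and among contacts within 500 kb alone the domain was not lower than in WT. On that total the retained domain took 54.0% in WT, 58.1%, 59.3% and 59.3% in the MFL replicates, and 54.2% in AMKO, a log2 ratio of 0.00 over WT (−0.02 to 0.02) and of −0.12 over the MFL mean (−0.14 to −0.10). In the mES libraries it took 41.2% to 41.9%. The upstream flank then took 17.6% in WT, 15.7% to 16.5% in the MFL replicates and 16.9% in AMKO, a log2 ratio over the MFL mean of 0.07 (0.01 to 0.12). The downstream flank took 12.4%, 8.76% to 9.16% and 10.4%, a log2 ratio over the MFL mean of 0.20 (0.12 to 0.28). In both flanks AMKO was thus below WT and above the 3 MFL replicates on that total. Sequence further downstream, from the end of that flank to 500 kb, was higher in AMKO, at 8.51% against 5.90% in WT and 6.17% to 7.28% in the MFL replicates, a log2 ratio of 0.53 (0.45 to 0.61). Since AMKO had fewer of its contacts within 500 kb, a change from one total to the other shifted each log2 ratio by about 0.32.

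Contacts per kb in the retained domain over those in a flank do not depend on the total, and they lay within the range of the 4 WT libraries. Over the upstream flank the ratio was 4.89 in WT (4.76 to 5.03), 5.86, 5.74 and 5.80 in the MFL replicates, and 5.08 in AMKO (4.95 to 5.21), whereas it was 3.34 to 3.49 in the mES libraries. Over the downstream flank it was 7.12 in WT (6.89 to 7.36), 10.7, 10.6 and 10.5 in the MFL replicates, and 8.44 in AMKO (8.18 to 8.72), against 7.09 to 7.40 in the mES libraries. The contrast between the domain and its flanks in AMKO was thus at or above that of the WT library of the experiment and below that of the MFL replicates on both sides. These ratios were computed after the shares had been seen. For the downstream flank the WT library lay near the mES libraries, so this ratio did not separate WT from mES cells.

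**Figure D3:**
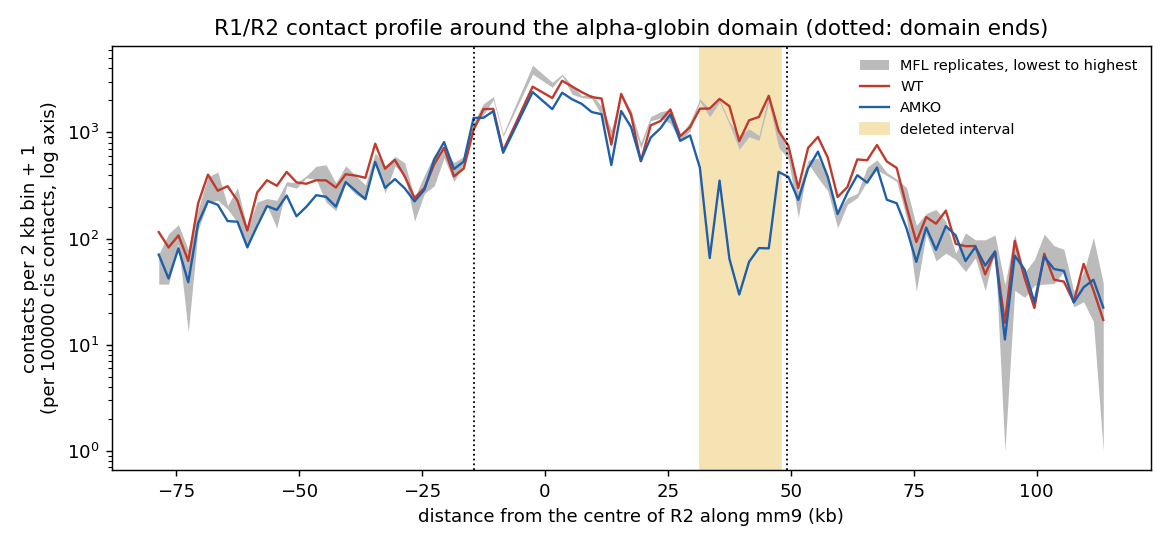
Contacts of R1 and R2 per 2 kb bin, per 100000 cis contacts outside the deleted interval with 1 added, on a log axis, by distance from the centre of R2. The WT line (red) and the AMKO line (blue) follow each other across the domain (dotted lines) and its flanks, with AMKO lower in 17 of the 18 domain bins tested, and separate by over 10-fold only in the deleted interval (shaded). The grey band spans the 3 MFL replicates.

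Within the domain, the longest retained segment runs from R2 to the deletion and covers the part of Nprl3 beyond R2 and all of Hba-x, the embryonic zeta-globin gene. It took 26.3% of cis contacts in WT, 26.5% to 27.1% in the MFL replicates and 20.3% in AMKO, a log2 ratio of −0.37 (−0.40 to −0.34). Within 500 kb the values were 41.1% in WT, 42.8% to 43.0% in the MFL replicates and 39.9% in AMKO, still below every WT library but by −0.04 on the log2 scale (−0.07 to −0.02). The short segment from the deletion to the domain end, which lies in Hbq1a and its upstream sequence, showed the larger difference. It took 0.862% in WT, 0.620% to 0.779% in the MFL replicates and 0.470% in AMKO, a log2 ratio of −0.88 (−1.08 to −0.67), and within 500 kb of −0.56 (−0.76 to −0.36). If nothing replaced the deleted interval, this segment lies 16.5 kb nearer to the enhancers along the chromosome in AMKO than in WT. The sequence left at the AMKO allele is not given in the sources used here. The counted fragments of this segment cover 0.977 kb and include the 332-base Hbq1a fragment that is nearly identical to Hbq1b. The value of the segment therefore carries the uncertainty of that near copy. Between R1 and R2, AMKO had 2.39% against 2.69% in WT and 3.53% to 4.28% in the MFL replicates, and upstream of R1 it had 4.46% against 4.64% and 5.13% to 5.71%. Within 500 kb both turned direction against WT and lay within the range of the 4 WT libraries. Between R1 and R2 the values were then 4.69% in AMKO, 4.23% in WT and 5.71% to 6.80% in the MFL replicates, a log2 ratio over WT of 0.15 (0.05 to 0.25). Upstream of R1 they were 8.71%, 7.34% and 8.30% to 9.12%, a log2 ratio over WT of 0.25 (0.17 to 0.32).

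Over all 26 named intervals, some of which overlap, AMKO was below every WT library in 13 and above every WT library in 3. For 2 kb bins of chromosome 11 the corresponding shares were 17.8% below and 7.99% above. Within 500 kb, AMKO was below in 4 intervals and above in 7, with 9.54% of bins below and 23.2% above. The sides thus depended on the total, and 4 intervals were below and 3 above on both. Those below were the segments on each side of the deletion, Hbq1a and Rhbdf1. The fragment that gave the Hbq1a value is also part of the segment after the deletion. Those above were the Ex window, Mpg and Stk10. Of the 12 gene bodies, 5 were below and 2 above on the chromosome 11 total.

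Among the globin genes that AMKO retains, Hba-x stayed within the WT range on the chromosome 11 total and Hbq1a was below it. Hba-x (32176400 to 32178116) took 1.33% of cis contacts in WT, 0.969% to 1.44% in the MFL replicates and 1.29% in AMKO, within the WT range. Within 500 kb it took 2.53% in AMKO against 1.54% to 2.29% in the 4 WT libraries, a log2 ratio of 0.28 over WT (0.14 to 0.42). Hbq1a (32200069 to 32200873) took 0.386% in WT, 0.390%, 0.265% and 0.332% in the MFL replicates, and 0.192% in AMKO, a log2 ratio of −1.0 (−1.31 to −0.70). It remained below every WT library within 500 kb, at 0.376% against 0.423% to 0.631%. Hba-x lies before the deletion and Hbq1a right after it. The Hbq1a value rests only on the 332-base fragment 32200138 to 32200469, and carries the uncertainty of its near copy in Hbq1b. Per 100000 reporter reads, that fragment had 222 in WT and 119 in AMKO, and both copies together had 488 and 176.

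Nprl3, the host gene of the enhancers (32125628 to 32167707), took 27.2% in WT, 28.4% to 30.1% in the MFL replicates and 22.7% in AMKO, a log2 ratio of −0.26 (−0.29 to −0.23). Within 500 kb the direction turned, with 42.6% in WT and 44.4% in AMKO, a log2 ratio of 0.06 (0.04 to 0.08), and AMKO lay between WT and the MFL replicates. The 3 upstream neighbours beyond Mpg took fewer contacts than in WT. Rhbdf1, which encodes an inactive rhomboid protein, took 2.99% in WT, 2.53% to 2.59% in the MFL replicates and 2.06% in AMKO, a log2 ratio of −0.54 (−0.64 to −0.44). Il9r, the interleukin 9 receptor gene and the farthest upstream, took 1.86%, 1.22% to 1.46% and 1.06%, a log2 ratio of −0.80 (−0.94 to −0.67). Snrnp25, a gene of the minor spliceosome, had a log2 ratio of −0.53 (−0.74 to −0.32), but its AMKO share of 0.485% was within the MFL range of 0.453% to 0.843%. Within 500 kb, Il9r and Snrnp25 lay inside the WT range, and Rhbdf1 was at 4.03% against 4.04% to 4.72%.

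Just outside the upstream end of the domain, contacts were higher in AMKO. The Ex window, a FISH probe site that ends next to the domain and overlaps Mpg, took 2.14% in WT, 1.95%, 2.28% and 2.11% in the MFL replicates, and 2.50% in AMKO, a log2 ratio of 0.23 over WT (0.12 to 0.34) and of 0.24 over the MFL mean (0.11 to 0.38). Within 500 kb the ratio was 0.53 against either reference (0.43 to 0.64 over WT, 0.40 to 0.67 over the MFL mean). Mpg, a DNA repair glycosylase gene (32126505 to 32132700), took 1.5% in WT, 1.31% to 1.68% in the MFL replicates and 1.69% in AMKO. On the chromosome 11 total its excess over the highest MFL replicate was small, and within 500 kb it was at 3.30% against 2.12% to 2.66%. The shares of R1 and R2 for the Ex window moved the same way, from 2.64% to 3.16% from R1 and from 1.63% to 1.84% from R2.

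On the downstream side the A window, the probe site next to the domain, took 2.44% in WT and 1.62% in AMKO, but 1.43% to 1.66% in the MFL replicates, so only the WT library stood apart there. Windows C and Cx, farther downstream, were within the WT range at 0.185% and 0.0615% in AMKO. The genes beyond were low in every library. Sh3pxd2b, a podosome adaptor gene, took 1.01% in WT, 0.912% to 1.31% in the MFL replicates and 1.18% in AMKO. Stk10, which encodes a serine/threonine kinase (32433305 to 32524587), took 1.01% in WT, 0.881% to 1.00% in the MFL replicates and 1.14% in AMKO, a log2 ratio of 0.18 (0.02 to 0.33). Fbxw11, a ubiquitin ligase subunit gene, took 0.618% in WT and 0.834% in AMKO, with 0.804% to 0.874% in the MFL replicates, so that AMKO differed from WT by 0.43 and from the MFL mean by 0.01 on the log2 scale. Within 500 kb, Sh3pxd2b, Ubtd2, Stk10 and Fbxw11 were all above every WT library, with log2 ratios over WT of 0.54, 0.45, 0.49 and 0.74, and Efcab9 was within their range at 0.301% against 0.246% to 0.306%.

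**Figure D4:**
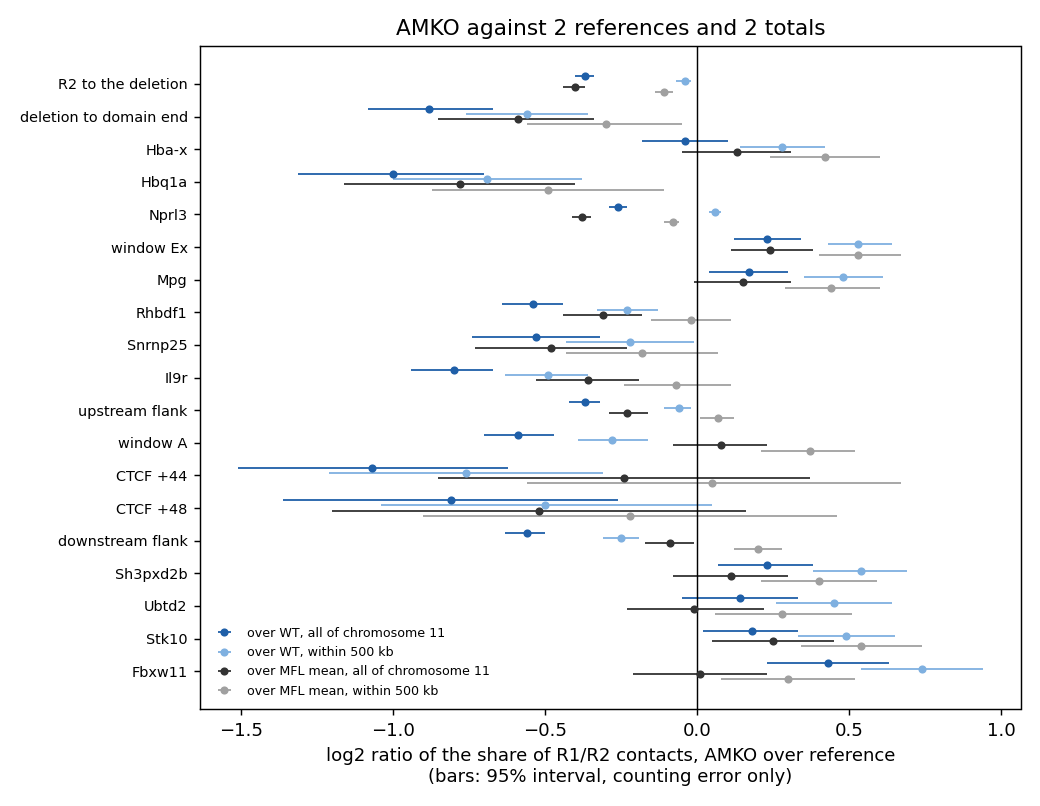
Log2 ratio of the AMKO share over a reference for 19 intervals, ordered by their place relative to the domain, with bars for the 95% counting interval. Blue points are against WT and black or grey points against the MFL mean, and dark points use all of chromosome 11 and light points contacts within 500 kb. Only intervals whose 4 points lie on the same side of 0, such as Hbq1a below and the Ex window above, kept their direction under both totals and both references. The Hbq1a points rest only on the 332-base fragment that is nearly identical to a deleted Hbq1b fragment.

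CTCF sites near the domain took few reads. The HS39.5 fragment (32137176 to 32137426, in a coding exon of Nprl3) took 0.0894% in WT, 0.188% to 0.226% in the MFL replicates and 0.156% in AMKO, so that AMKO was higher than WT by 0.81 on the log2 scale (0.29 to 1.32) and lower than the MFL mean by −0.40 (−0.86 to 0.06). The +44 fragment (32220918 to 32221720, intergenic) took 0.193% in WT, 0.0935%, 0.120% and 0.112% in the MFL replicates, and 0.0920% in AMKO, a log2 ratio of −1.07 over WT (−1.51 to −0.62) and of −0.24 over the MFL mean (−0.85 to 0.37). The +48 fragment took 0.115% in WT, 0.0625% to 0.132% in the MFL replicates and 0.0655% in AMKO. The sign at HS39.5 thus changed with the WT library used, and the values at +44 and +48 did not differ from the MFL mean beyond counting error. The +44 fragment holds 2 matches to a core of the CTCF motif (CC, 3 free bases, AG, 2 free bases and GGC, searched on both strands), and both are on the minus strand. They are printed from that strand with 20 bases on each side and the match in capitals. They are sequence of the +44 fragment, whose AMKO share did not differ from the MFL mean beyond counting error.
CTCF +44, chr11:32221317-32221368: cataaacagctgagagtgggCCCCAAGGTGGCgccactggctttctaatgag
CTCF +44, chr11:32221375-32221426: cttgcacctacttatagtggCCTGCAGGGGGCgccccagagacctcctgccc
Of chromosome 11 windows of the same 803 bases, 11.1% hold a match. The HS39.5 and +48 fragments hold 0 matches to these letters, which 3.55% and 34.1% of windows of their lengths hold.

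A deletion brings sequence beyond it nearer to the enhancers, and contacts were therefore set out by distance from the centre of R2. The sequence left at the AMKO allele is not given in the sources used here. Subtracting the full deleted length assumes that nothing replaced it. With the deleted length subtracted, AMKO was below every WT library in 14 of 14 steps of 5 kb from 30 kb to 100 kb, with a median log2 ratio over WT of −1.81. At 30 to 35 kb AMKO had 182 contacts per kb (per 100000 cis contacts), against 835 in WT and 878 to 897 in the MFL replicates. At 35 to 40 kb it had 279, against 792 and 633 to 670, and at 95 to 100 kb it had 14.6, against 22.4 and 15.7 to 26.3. From 120 kb on this did not hold. AMKO was above every WT library at 120 to 125 kb, with 22.9 against 3.55 to 16.4. It was also above at 125 to 130 kb, with 17.3 against 2.27 to 9.93, and at 150 to 155 kb. From 130 to 150 kb it lay within their range. In the WT libraries the steps from 30 to 50 kb fall mostly on the deleted interval, which holds the α-globin genes, and in AMKO on the sequence that follows the deletion. At the distance of the deleted interval, that sequence had fewer contacts than the interval had in WT.

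At its position in mm9, the same sequence had contacts much nearer to WT. Of the 10 steps from 50 kb to 100 kb, AMKO was below every WT library in 4 and within their range in 6, and all 10 were lower than in WT, with a median log2 ratio of −0.47. At 60 to 65 kb, for example, AMKO had 134 contacts per kb, against 176 in WT and 99.1 to 111 in the MFL replicates, and at 70 to 75 kb it had 69.9, against 144 and 118 to 143. The AMKO values were thus nearer to WT by position in mm9 than by the shortened distance, though the medians cover different steps.

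**Figure D5:**
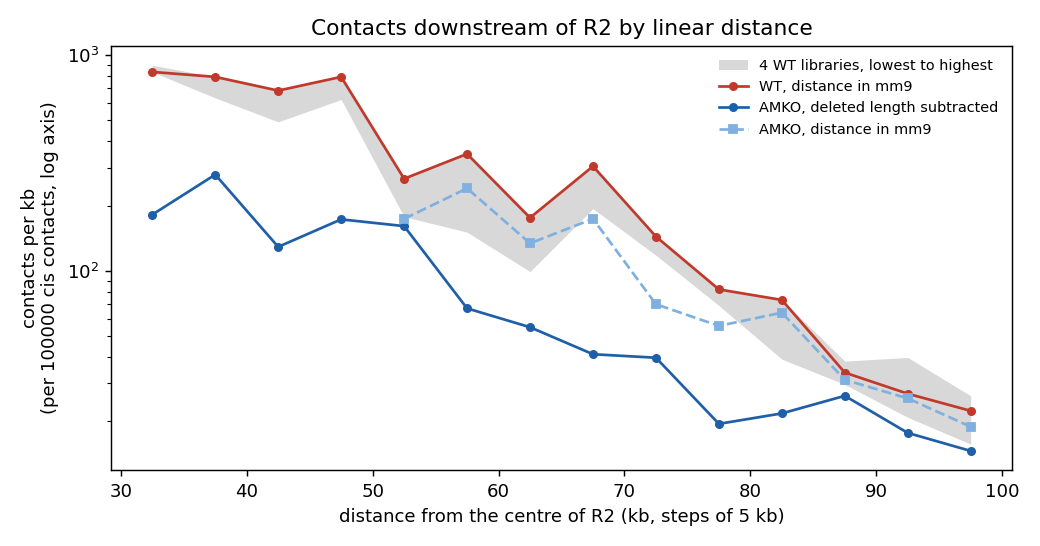
Contacts per kb downstream of R2, per 100000 cis contacts outside the deleted interval, in steps of 5 kb on a log axis, with distance in mm9 for WT (red) and AMKO (dashed light blue) and with the deleted length subtracted for AMKO (dark blue). The grey band spans the 4 WT libraries. The dark blue line lies below the band in all 14 steps from 30 to 100 kb, and the dashed line lies below it in 4 of 10.

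Over 2 kb bins of chromosome 11, 701 were tested with limma in a fit of WT, AMKO and MFL, in which the single libraries were assumed to vary like the MFL replicates. No bin passed an adjusted p of 0.05 (Benjamini-Hochberg), which is 0% of bins, with a lowest adjusted p of 0.84, while 19 bins had an unadjusted p under 0.05. On simulated 4-fold changes the same fit recovered 7 of 175 changed bins, so that this count says little about changes of that size or smaller. The quasi-likelihood test of edgeR on the recovered reads called 31 bins lower (4.42%) and 1 higher (0.143%), and DESeq2 called 0, with 24 at an unadjusted p under 0.05. edgeR also takes its spread from the MFL replicates, and the chi-square between WT and an MFL replicate was larger than any between MFL replicates from the same viewpoint, so its p-values may be too small. Its calls also depended on single MFL replicates. Without replicate 1 edgeR called 6 bins lower and 2 higher, without replicate 2 it called 0, with 46 bins at an unadjusted p under 0.05, and without replicate 3 it called 10 lower and 6 higher. The edgeR values below are therefore used to order bins and not as calls. The median log2 ratio of AMKO over WT across all bins was −0.02 on the chromosome 11 total and 0.23 within 500 kb.

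The bins that edgeR called lower lay in the domain and its flanks, with 9 of the 18 domain bins, 12 of the 32 bins of the upstream flank, 9 of the 32 bins of the downstream flank and 1 elsewhere. This placement goes with the chromosome 11 total. Bins near the viewpoints also held the most contacts, and a count test calls bins with few reads less easily. Of the 701 bins, 113 had a mean of at least 50 per 100000. The part of read number in the placement was not tested. Within 500 kb edgeR called 5 lower and 4 higher, and the domain bins lower than WT went from 17 to 9 of 18, with a median log2 ratio of −0.01. The bin with the lowest edgeR adjusted p, 32200001 to 32202000 over Hbq1a and its downstream sequence, had 744 contacts per 100000 in WT, 609, 555 and 641 in the MFL replicates and 379 in AMKO, with an edgeR adjusted p of 7.46e-07 and a limma adjusted p of 0.84. The bin 32220001 to 32222000, which holds the +44 fragment, had 530 in WT, 391, 396 and 417 in the MFL replicates and 231 in AMKO, with the same edgeR adjusted p. The bin 32166001 to 32168000, at the end of Nprl3 nearer to the globin genes, had 2300 in WT, 2130 to 2270 in the MFL replicates and 1590 in AMKO, with an edgeR adjusted p of 7.65e-06. In these 3 bins AMKO lay below every WT library, and the bin over Hbq1a includes the fragment that is nearly identical to Hbq1b. The +44 fragment itself took 0.193% in WT, 0.0935% to 0.120% in the MFL replicates and 0.0920% in AMKO. The 1 bin that edgeR called higher, 32136001 to 32138000 at the upstream end of the domain, had 1060 in WT, 1080 to 1250 in the MFL replicates and 1370 in AMKO, with an edgeR adjusted p of 0.042.

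A descriptive rule, a fold of at least 1.5 against WT with AMKO outside all 4 WT libraries, picked 28 bins that were higher (3.99%) and 61 that were lower (8.70%). On simulated reads with counting error only, the same rule recovered 124 of 175 changed bins and also picked 52 unchanged ones. Single picks, and a large part of all 28 and 61 picks, can therefore arise from counting error. Their placement is given as description only. Of the 61 lower bins, 7 lay in the upstream flank, 6 in the downstream flank and 1 in the domain. The others lay outside the flanks, with 13 upstream and 8 downstream within 500 kb, and 13 on each side beyond 500 kb. With contacts within 500 kb as the total, 13.0% of 461 bins were higher and 3.90% lower. On that total, 44 of the 60 higher bins lay downstream between the flank and 500 kb, where 181 of the 461 tested bins lay. The bins with the largest ratios rested on few reads. The highest, 32020001 to 32022000 upstream, had 31.1 contacts per 100000 in AMKO from 21 reads, 4.70 in WT from 2 reads, and 15.5, 12.2 and 5.13 in the MFL replicates. Of the 5 bins with the lowest ratios, the one with more than 10 AMKO reads, 31724001 to 31726000 in D630024D03Rik, had 12.3 in AMKO from 11 reads, 65.9 in WT from 34 reads, and 15.5 to 31.2 in the MFL replicates.

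On other chromosomes, reads were scattered over 41543 fragments in AMKO and 24774 in WT, and 6 fragments had 15 reads or more in either. Promoters of other erythroid genes were not among them. The fragments of the adult β-globin genes Hbb-b1 and Hbb-b2 and of Slc25a37, the mitoferrin 1 gene, had 0 reads in all 5 libraries, and within 5 kb of them there were 1, 1 and 4 reads in WT and 0, 0 and 2 in AMKO. At this depth, 3 reads correspond to 3.35 per 100000 in WT and 2.25 in AMKO, and smaller levels were not detectable. Among the 6 fragments, 2 on chromosome 6 (117878717 to 117879058) had reads in both libraries, mostly from R2, and 1 on chromosome 17 (26438451 to 26438723) had 16 reads in WT and 1 in AMKO.

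The other 3 fragments lay side by side at the 3′ end of Pgk1, the phosphoglycerate kinase gene, at chrX:103399004-103399548 (mm9). They had 89 reads from R1 and 125 from R2 in AMKO, 5 and 6 in WT, 0 in every MFL replicate and 0 in every mES library. Per 100000 reporter reads this is 161 in AMKO and 12.3 in WT, which is 7.64% of AMKO. A count of 3 reads corresponds to 27.1, 20.5 and 9.59 per 100000 in MFL replicates 1, 2 and 3, and to 3.79 to 4.23 in the mES libraries. Among the MFL replicates, a level like that in WT was thus within reach of replicate 3 only. The remainder of Pgk1 with 5 kb on each side had 4 reads in AMKO, all on 1 fragment at its 5′ end, and 0 in the other libraries. The middle fragment, which lies wholly beyond the annotated end of the gene, is given from the plus strand of mm9. Reads joined this sequence to R1 and R2 in AMKO and not in the MFL replicates.
Pgk1 3′ flank, chrX:103399289-103399373: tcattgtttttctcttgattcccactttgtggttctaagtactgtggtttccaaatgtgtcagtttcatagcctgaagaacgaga
This fragment had 33 reads from R1 and 52 from R2 in AMKO and 0 and 1 in WT. The sequence left at the AMKO allele is not given in the sources used here. In the other direction, AMKO kept a median of 4.31% of the WT value over the 31 deleted fragments. The source of the reads on these X fragments in AMKO and in WT, and of those on deleted fragments in AMKO, was not tested.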

How the data were processed

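NG Capture-C libraries of WT and AMKO (1 each) and of MFL (3) and mES (3) captured from R1 and R2 were used. The authors trimmed and aligned reads to mm9 (Trim Galore and Bowtie, versions not given in the sources used here), counted reporter reads on DpnII fragments with their own scripts, and deposited values whose nearest common unit is RPM, but which sum to 100000 per viewpoint. Whole reads were recovered from them with a rounding error of at most 4.1e-05. Reporter reads per viewpoint ranged from 5332 to 81841. How reads with several matching positions were treated is not given in the sources used here.

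Groups came from the sample labels, and the time of the MFL libraries (30 h in the description, 0 h in the time field) was taken as 30 h. Fragments within 1 kb of R1 or R2 and those of the deleted interval were left out, each viewpoint was scaled to its cis total, and R1 and R2 were averaged. The domain was the COMP BAC insert (32137046 to 32200781), and the windows Ex, A, C and Cx were the plasmid probes, all as the methods of the study give them. Genes came from GENCODE vM1 on mm9, whose sequence also gave the printed bases. Log2 ratios had 95% intervals from read counts, and shares of reads 95% Wilson intervals. Each 2 kb bin whose mean reached 10 per 100000 was tested with limma 3.58.1 on log2(value + 1) with Benjamini-Hochberg adjustment at 0.05, so fold changes of low bins are understated, and with edgeR 4.0.16 and DESeq2 1.42.0 on recovered reads (R 4.3.3). The descriptive rule was a fold of 1.5 with AMKO outside all 4 WT libraries. On simulated reads with 4-fold changes in 175 of 701 bins, limma recovered 7 with 0 false calls, and the descriptive rule 124 with 52 false calls.

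The intervals, lists and tests were chosen with earlier results of these data known. The named intervals were the domain and its retained segments, both flanks, the probe windows, 3 CTCF fragments and the genes from Il9r to Fbxw11, with Hbb-b1, Hbb-b2 and Slc25a37 on other chromosomes, and the named bins were the 5 with the largest ratio in each direction under the descriptive rule, since none passed limma. Bins named for their edgeR p, the classes of distance beyond the flanks, the ratios of domain to flanks, and the alternatives that combine contacts within 500 kb with the MFL mean, limma, edgeR or the descriptive rule were chosen after the data were seen. Alternatives were other totals, margins, viewpoints, references, pseudocounts, minimums, bin sizes, step sizes and replicates.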

Additional observations from a re-analysis of the deposited data

Results flagged for a closer look

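A run of 3 adjacent fragments on chromosome X at the 3′ end of Pgk1, outside the chromosome that the comparison was about, had reads in AMKO above the level in the WT, MFL and mES libraries. The fragment 103399004 to 103399260 had 113 reads in AMKO and 10 in WT, the fragment 103399289 to 103399373 had 85 and 1, and the fragment 103399374 to 103399548 had 16 and 0. All 3 had 0 reads in the MFL and mES libraries.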

How the results depend on the processing

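For the retained domain, the log2 ratio of AMKO over WT of −0.32 was −0.16 with the deleted interval kept in the total, −0.21 with the values as deposited, 0.00 within 500 kb, −0.38 with 5 kb left out around the viewpoints, −0.16 from R1 alone, −0.44 from R2 alone, −0.42 against the MFL mean and −0.12 against that mean within 500 kb. For the upstream flank, −0.37 became −0.22, −0.28 and −0.06 with the first 3 of these totals, −0.23 against the MFL mean and 0.07 against it within 500 kb. For the downstream flank, −0.56 became −0.40, −0.47 and −0.25 with these totals, −0.65 from R1, −0.45 from R2, −0.09 against the MFL mean and 0.20 against it within 500 kb. Leaving out each MFL replicate from the mean gave −0.43 to −0.41 for the domain, −0.25 to −0.21 for the upstream flank and −0.12, −0.08 and −0.07 for the downstream flank. Against WT the total alone turned the sign of neither flank, which turned only with both the total and the reference changed, and the cause was not tested.

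Among 310 further values over 29 intervals, 256 kept their direction, and 4 reversed a ratio for which AMKO lay outside all 4 WT libraries and whose counting interval excluded 0. These were R1 to R2 (0.15) and Nprl3 (0.06) within 500 kb, and CTCF +44 (0.05) and the sequence upstream within 500 kb beyond the flank (0.10) within 500 kb against the MFL mean. The ratios of the domain start to R1 (0.25) and Efcab9 (0.29), whose intervals included 0, also turned within 500 kb. The median over distance steps up to 100 kb, −1.81, was −0.47 with distance in mm9 and −1.78 in steps of 10 kb.

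Against 0 bins higher and 0 lower with limma, edgeR called 1 and 31, and within 500 kb edgeR called 4 and 5. Leaving out each MFL replicate, in a run added after seeing the data, edgeR called 0 to 6 higher and 0 to 10 lower, with 2 and 6 without replicate 1, 0 and 0 without replicate 2 and 6 and 10 without replicate 3. Without a minimum limma called 10853 and 5516 of 24744 bins, of which 16351 had 0 in every MFL replicate and thus no spread. Leaving out each MFL replicate, limma gave 0 to 3 higher and 0 lower, with the 3 calls without replicate 1. The descriptive rule, at 28 higher and 61 lower, gave 38 and 36 with the deleted interval kept in the total, 17 and 27 from R2 alone, 18 and 30 with a pseudocount of 10, 0 and 20 with a mean of at least 50, and 60 and 18 within 500 kb. No paired analysis was possible because AMKO and WT have 1 library each. The depth of the MFL replicates, with 27.5 to 82.9 per 100000 cis reads for 3 reads, limited the range of the WT libraries in single bins.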
